A study of Homo sapiens with 6 samples.

Results

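RNA from repeats was compared between H9 human embryonic stem cells grown in RSeT medium with the drugs DZNep and TSA (RSeT+DT) and primed H9 cells. The comparison rests on 4 of the 6 libraries of the series, 2 in each group, chosen by the culture named in the labels, and on the deposited table of raw counts with 15600 repeat names. Of these names, 14234 are simple or low-complexity repeats, that is short units written in tandem, and 1366 are other repeats, such as LINE1 elements, endogenous retroviruses, Alu elements, satellites and structural RNAs. H9 is an established line and all cells were wild type. The primed cells were kept in mTeSR. The RSeT+DT cells were kept in RSeT, a commercial medium for a naive-like state, to which 10 nM DZNep and 5 nM TSA had been added, and were harvested 48 hours later. The other 2 libraries are from cells in RSeT without the drugs. They shared in the estimate of the spread, and their values stand beside the results. RSeT+DT and primed cells differed in the medium and in the drugs at once, so the comparison alone cannot tell the effects of medium and drugs apart. Marker genes of the cell state were not analysed here, since the tables hold repeats.

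Repeats make up a large part of the human genome and are for the most part kept silent by DNA methylation and by repressive histone marks. LINE1 elements copy themselves through an RNA, and L1HS is the youngest human subfamily. Endogenous retroviruses consist of an internal part, named with the ending -int, between long terminal repeats (LTRs) that serve as promoters. LTR7 drives HERVH, an RNA known in primed pluripotent cells, and LTR5_Hs drives HERVK, which is known from the human embryo and from naive-like cells. DZNep blocks S-adenosylhomocysteine hydrolase, which inhibits methyltransferases such as the Polycomb enzyme EZH2, and TSA blocks histone deacetylases.

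The row with the largest difference was a tandem repeat of 5 bases, the unit found in human satellites II and III. The names in the count table write this unit in 10 ways, from 5 starting points on each strand. They are shown because the 10 rows did not behave alike. The capitals mark the named unit, followed by 2 further copies. The first 5 lines read the GGAAT strand and the last 5 lines its complement, and these 10 rows were picked out after the value of the first one had been seen.
(GGAAT)n, which rose: GGAATggaatggaat
(GAATG)n, which did not pass: GAATGgaatggaatg
(AATGG)n, which rose: AATGGaatggaatgg
(ATGGA)n, which rose: ATGGAatggaatgga
(TGGAA)n, which rose: TGGAAtggaatggaa
(ATTCC)n, which did not pass: ATTCCattccattcc
(TTCCA)n, which did not pass: TTCCAttccattcca
(TCCAT)n, which rose: TCCATtccattccat
(CCATT)n, which did not pass: CCATTccattccatt
(CATTC)n, which did not pass: CATTCcattccattc

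Counts summed over all repeat names came to 13064045 and 11520770 in the RSeT+DT libraries, 16838730 and 13628911 in the primed libraries, and 38312112 and 17191110 in the RSeT libraries. Levels below are the deposited CPM, which put the counts of each library on the same total, and are always given for replicate 1 and then replicate 2. Fold changes are those of edgeR's quasi-likelihood test on the raw counts, with TMM factors, and a repeat rose or fell where its Benjamini-Hochberg adjusted p over 4665 tested repeats was under 0.05. The RSeT+DT libraries gave more of their counts to a few abundant repeats, and TMM corrects for this. As a result the log2 fold changes lie a median of 0.285 above those from library totals, so that a repeat with a slightly lower CPM could still pass as higher. With 2 against 2 libraries an exact permutation test cannot go below p = 0.333, and all adjusted p-values come from the model. The labels name no separate cultures for the libraries of a group, so these p-values speak only for the spread among libraries and that spread may be technical. A count sums all genomic copies of a repeat and takes in reads from host transcripts that hold a copy, and in whole cultures a change in RNA per cell cannot be told apart from a change in the share of cells that make it.

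Of the 4665 tested repeats, 1173 (25.1%) were higher in RSeT+DT than in primed cells and 962 (20.6%) were lower. Among the 1232 tested repeats other than simple repeats, 309 (25.1%) were higher and 405 (32.9%) lower, and among the 3433 simple repeats 864 (25.2%) were higher and 557 (16.2%) lower. The balance of the directions depended on the scaling. With library totals, 608 of all repeats (13%) were higher and 1787 (38.3%) lower, with 141 (11.4%) and 724 (58.8%) of those other than simple repeats and 467 (13.6%) and 1063 (31%) of the simple repeats. With factors from interspersed repeats and satellites alone, 1310 (28.1%) were higher and 816 (17.5%) lower, with 373 (30.3%) and 320 (26%) of those other than simple repeats and 937 (27.3%) and 496 (14.4%) of the simple repeats. Under all 4 scalings (TMM, RLE, library totals and interspersed repeats), 141 repeats other than simple repeats were called higher (11.4%) and 320 lower (26%). The counts of lists below are to be read against the shares of their scaling. With TMM these are 25.1% higher and 32.9% lower among repeats other than simple repeats. Among simple repeats they are 25.2% and 16.2%. A list near these shares does not stand out.

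Against a minimum change of 2-fold, 28 repeats other than simple repeats were higher (2.27%) and 2 were lower (0.162%), HSAT4 and MLT1E3-int. Simple repeats had 92 higher (2.68%) and 84 lower (2.45%) at this size. The rises among the former included 5 members of the HERVH and LTR7 list, 3 of the HERVK and LTR5 list, 3 satellites, L1HS, L1PA2, L1PB2 and L1M2, LTR17, MER61A, MER110A and BC200. Over repeats other than simple repeats the median log2 fold change was -0.06 with TMM, -0.34 with library totals and 0.002 with interspersed scaling. It gives the centre of the values, which follows the scaling, and not the size of the changes.

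**Figure D1:**
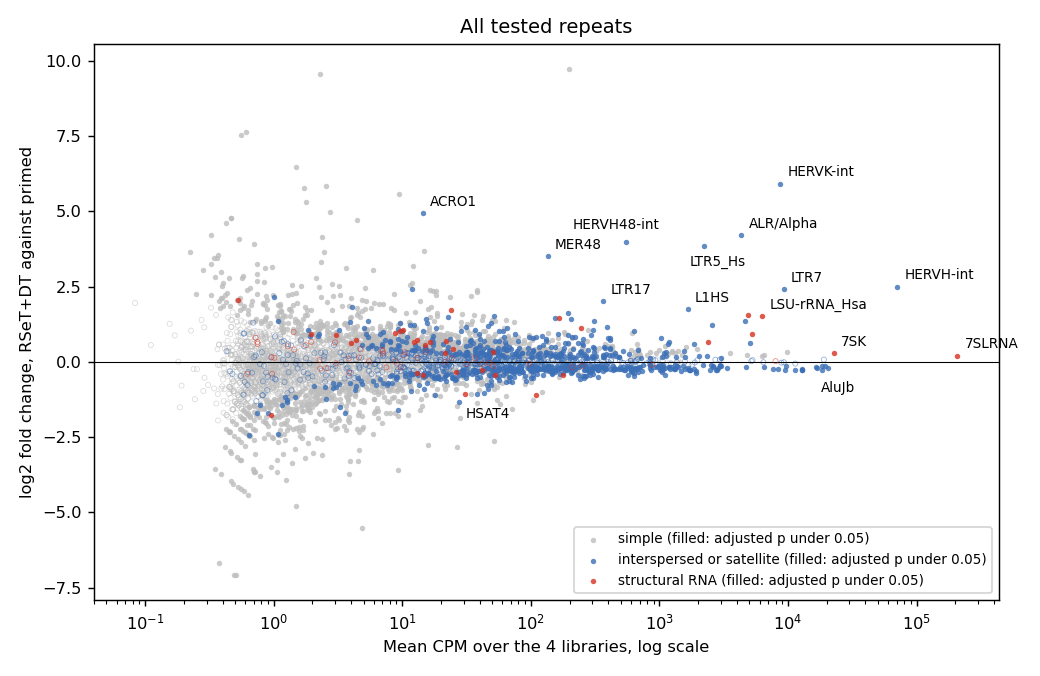
Log2 fold change of RSeT+DT against primed cells (y axis, TMM scaling) against the mean CPM of the 4 libraries (x axis, log scale) for the 4665 tested repeats; filled points passed edgeR's test and open points did not. HERVK-int (5.93), ALR/Alpha (4.21), LTR5_Hs (3.86), HERVH-int (2.50) and LTR7 (2.41) lie high on the y axis at a high CPM, and AluJb lies close to zero (-0.21).

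HERVK showed the largest rise of any repeat other than simple repeats. HERVK-int, from the most recent betaretrovirus of the human genome, had a CPM of 16530 and 17480 in RSeT+DT and of 335.8 and 344.5 in primed cells. Its log2 fold change was 5.93 (SE 0.034, adjusted p = 5.23e-36), a fold of 60.9. The groups were far apart. In CPM both RSeT libraries, at 20070 and 19229, lay above both RSeT+DT libraries. By edgeR's test with TMM factors RSeT+DT did not differ from RSeT (-0.06, adjusted p = 0.111). Other scalings are not given for that comparison. LTR5_Hs, the LTR that goes with it, was at 4247 and 3998 against 327.3 and 364.7, a log2 fold change of 3.86 (SE 0.049). LTR5 rose too, from 4.04 and 4.84 to 19.4 and 19.5 CPM (2.43, SE 0.143). The older LTR5A and LTR5B went the other way, by -0.36 and -0.11, and the call of LTR5B was lost with DESeq2, with interspersed scaling (which leaves 3 members higher and 1 lower), with only the 2 groups and, at -0.11 to -0.056, without any library other than primed replicate 1. Together the 5 members took 2.11% and 2.18% of all counts in RSeT+DT, 0.111% and 0.119% in primed cells, and 2.45% and 2.37% in RSeT.

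HERVH and its LTRs rose as well, from a high level. HERVH-int was at 118630 and 114860 CPM in RSeT+DT and at 23829 and 26519 in primed cells, a log2 fold change of 2.50 (SE 0.027, adjusted p = 7.04e-30). Its LTR7 was at 15231 and 14768 against 3321 and 3574 (2.41, SE 0.033). The 2 groups did not overlap for either, and the RSeT libraries lay between them, with 73442 and 75615 CPM of HERVH-int. LTR7Y, an LTR7 variant known from naive cells and the early embryo, rose from 28.9 and 32.7 to 72.0 and 73.2 CPM (1.53, SE 0.068). HERVH48-int, the internal part of another HERVH-like virus, had the steepest rise of the list, from 77.9 and 80.5 to 1030 and 1026 CPM (3.99, SE 0.050), and its LTR MER48 rose from 26.7 and 25.5 to 250.9 and 237.4 CPM (3.51, SE 0.059). LTR7A, LTR7B and LTR7C did not pass, at 0.67, 0.04 and 0.12. Thus 5 of the 8 members were higher and 0 lower by edgeR and by DESeq2, against 25.1% and 32.9% of the repeats other than simple repeats, with a median of 1.97. With library totals LTR7B was called lower, at -0.24. The 8 members took 13.5% and 13.1% of all counts in RSeT+DT against 2.76% and 3.06% in primed cells, and 8.41% and 8.65% in RSeT.

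**Figure D2:**
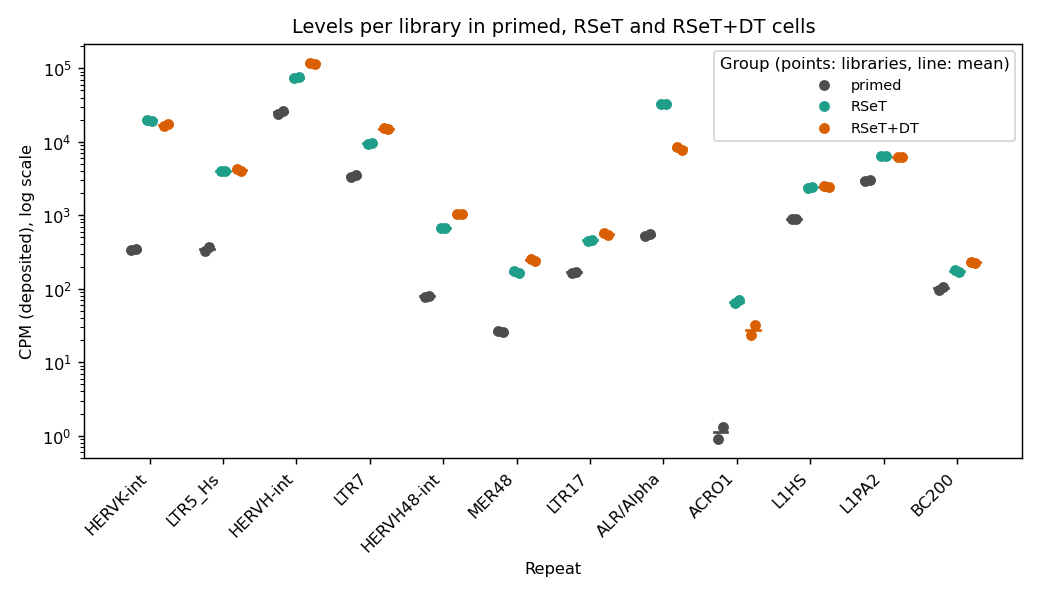
Deposited CPM (y axis, log scale) of 12 repeats (x axis) in the primed, RSeT and RSeT+DT libraries; points are the 2 libraries of a group and the short line is their mean. For every repeat shown, both RSeT+DT libraries lie above both primed libraries, and ALR/Alpha is highest in RSeT, at 32356 and 32556 CPM.

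Other betaretroviruses had no common direction. Of 37 tested, 10 were higher (27.0%) and 9 lower (24.3%), with a median of -0.01. Of all repeats other than simple repeats, 25.1% were higher and 32.9% lower, so the list did not stand out. With library totals 3 were higher and 21 lower, and with interspersed scaling 12 and 5. LTR3A rose from 31.0 and 33.8 to 60.5 and 59.4 CPM (1.18, SE 0.070). HERVK11-int passed at 0.39 and HERVK9-int at 0.23, but the CPM of both overlapped between the groups and both calls were lost with library totals, where HERVK9-int was at -0.06. HERVK13-int, at 27.4 and 29.5 against 64.1 and 65.7 CPM, fell by 0.90 on the log2 scale (SE 0.076), HERVK14-int fell by 0.61 and LTR13 by 0.33.

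LTR12 and HERV9 divided in the same manner. LTR12C, known as a promoter that HDAC inhibitors activate, was at 2059 and 2030 CPM in RSeT+DT, 1607 and 1684 in primed cells, and 2187 and 2243 in RSeT. Its log2 fold change was 0.60 (SE 0.041, adjusted p = 5.4e-12) and the value for RSeT against primed was 0.56. LTR12D (0.93) and HERV9NC-int (1.03) rose too, while LTR12E (-0.40), LTR12B (-0.58) and HERV9-int (-0.52) fell. In all 4 of 10 tested members were higher and 3 lower, against 25.1% and 32.9% of repeats other than simple repeats. RSeT+DT and RSeT did not differ by edgeR's test with TMM factors in LTR12C, LTR12D or HERV9NC-int (adjusted p of 0.479, 0.587 and 0.656).

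LTR17, the LTR of HERV-W, was at 577.2 and 545.7 CPM in RSeT+DT and at 165.6 and 171.0 in primed cells, a log2 fold change of 2.03 (SE 0.047). Its internal part HERV17-int, the source of the placental protein syncytin-1, rose less, from 332.0 and 343.3 to 483.3 and 481.9 CPM (0.80, SE 0.043). Both belong to a list of 17 LTRs known to be used in trophoblast, which stands here for another cell type. In that list 11 were higher (64.7%) and 3 lower (17.6%: LTR10A, MER21A and MER39B), with a median of 0.26. Of all repeats other than simple repeats, 25.1% were higher and 32.9% lower, and 11.4% and 58.8% with library totals. With library totals 3 of the 17 LTRs were higher and 6 lower. Their summed share of the counts was 0.318% and 0.327% in RSeT+DT, 0.283% and 0.295% in primed cells, and 0.356% and 0.363% in RSeT, and their part in the other results was not tested.

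LTRs and internal parts of the same virus could differ. Among 15 pairs chosen by name, the LTR7 and HERVH-int values lay close to each other (2.41 and 2.50), whereas HERVK-int exceeded LTR5_Hs (5.93 and 3.86) and LTR17 exceeded HERV17-int. LTR2 rose by 0.82 and HERVE-int was lower, at -0.37. THE1C-int rose by 0.57 with THE1C at -0.02, which did not pass. HERVIP10FH-int rose by 0.88 and LTR10A was lower at -0.41. The difference within a pair was not tested.

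Of the 61 internal parts of other ERV1 viruses, 26 were higher and 16 lower (median 0.11), and 15 and 25 with library totals. MER4-int rose from 221.2 and 231.7 to 365.2 and 404.7 CPM (1.05, SE 0.044), and MER61-int rose by 0.89. HERVFH21-int, at 8.5 and 11.4 against 25.1 and 26.3 CPM, fell by 1.09 (SE 0.155), and HERVP71A-int fell by 1.02, HERVFH19-int by 0.78, HERVIP10B3-int by 0.51 and HERVS71-int by 0.48. Among 347 other LTRs 110 were higher (31.7%) and 82 lower (23.6%), with a median of 0.05, and with library totals 44 and 178. Over all repeats other than simple repeats the shares were 25.1% and 32.9%. The leading rises were LTR17, MER61A (108.5 and 112.6 to 279.4 and 275.6 CPM, 1.61) and MER110A (125.4 and 134.1 to 286.3 and 279.4 CPM, 1.41). The leading falls were small in CPM: LTR57-int (-0.96), LTR1F (-0.89) and MER57E2 (-0.81), whose call was lost without RSeT+DT replicate 1 (-0.54).

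LTRs of the 8-cell embryo changed little. MLT2A2, which flanks HERVL, was at 400.5 and 394.2 CPM in RSeT+DT and at 351.3 and 357.5 in primed cells (0.45, SE 0.043, adjusted p = 2.56e-09). ERVL-int passed at 0.40. HERVL-int, the virus whose LTRs mark the embryo at genome activation, was at 534.8 and 559.0 against 633.6 and 663.9 CPM, and its log2 fold change, 0.04, missed the threshold; MLT2A1 (-0.05), LTR14B (0.00) and LTR7B (0.04) did not pass either. So 2 of 6 were higher (33.3%, against 25.1% of repeats other than simple repeats) and the other 4 did not pass. With library totals 1 was higher, MLT2A2, and 4 were lower. Of the 22 members of the ERVL and MLT2 list, 5 were higher (22.7%) and 6 lower (27.3%). These shares were near the 25.1% and 32.9% of all repeats other than simple repeats. The counts were 1 and 15 with library totals and 7 and 4 with interspersed scaling. In the THE1 and MST list the counts were 8 and 9 of 24, and 2 and 16 with library totals and 8 and 4 with interspersed scaling. MSTB2-int rose from 7.19 and 5.36 to 12.9 and 12.7 CPM (1.30), and THE1B, lower at -0.14, lost its call with interspersed scaling and without primed replicate 2 (-0.13). MLT1 leaned downward, with 4 of 57 higher and 28 lower (median -0.14), and 10 and 18 with interspersed scaling. MLT1E3-int fell by 1.60 (SE 0.176), from 13.4 and 15.6 to 3.60 and 4.25 CPM.

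**Figure D3:**
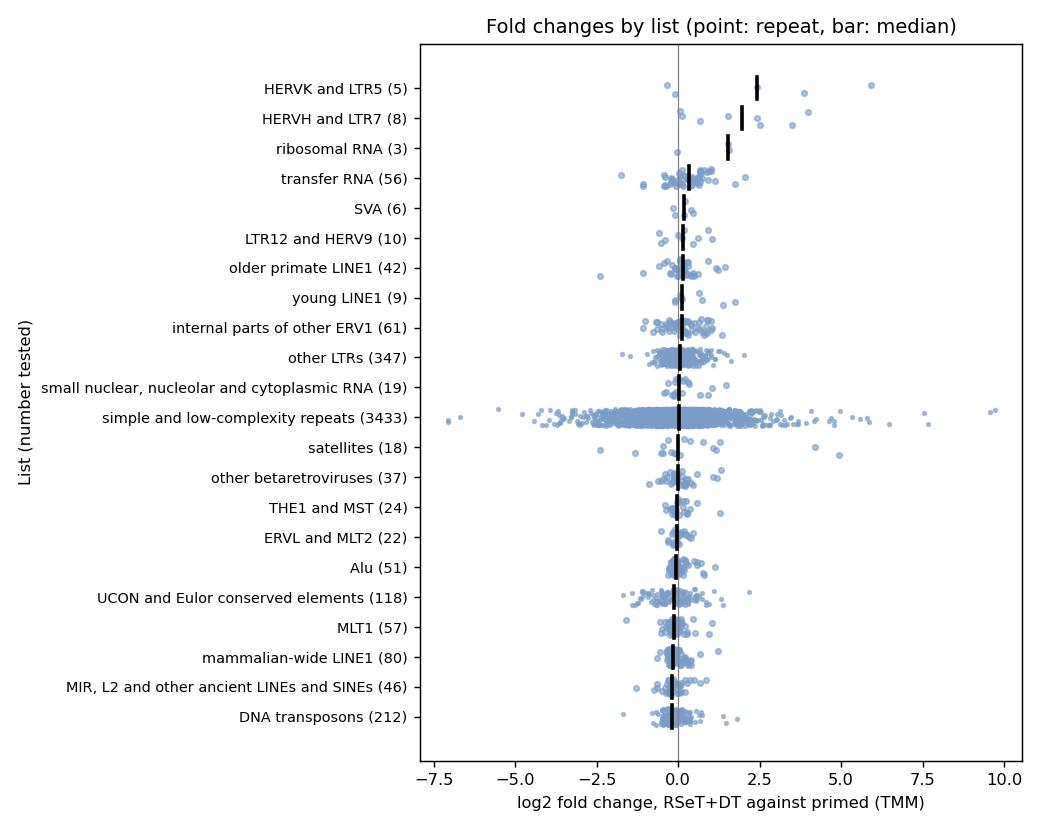
Log2 fold changes of RSeT+DT against primed cells (x axis, TMM scaling) by list (y axis, number of tested repeats in brackets); each point is a repeat and the bar is the median of the list. The HERVK and LTR5 list and the HERVH and LTR7 list have medians of 2.43 and 1.97, and DNA transposons lie lowest, at -0.18.

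LINE1 rose at its youngest end. L1HS was at 2462 and 2399 CPM in RSeT+DT, 886.0 and 879.1 in primed cells, and 2384 and 2387 in RSeT, a log2 fold change of 1.75 (SE 0.044, adjusted p = 2.31e-21). L1PA2, its nearest relative, was at 6269 and 6282 against 2920 and 3038 CPM (1.36, SE 0.033), and L1PA3 at 5629 and 5697 against 4396 and 4536 (0.63, SE 0.032). Values dropped with the number in the name over these first members. L1PA4 stood at 0.12, L1PA5 at -0.11, L1PA6 at 0.05, L1PA7 at 0.08 and L1PA8 at -0.09, the last 3 without passing, and the call of L1PA5 was lost with interspersed scaling and, at -0.10 and -0.099, without primed replicate 1 or 2. With library totals L1PA4 was lower, at -0.17. The order then broke off, since L1PA8A (0.73) and L1PA13 (0.61) rose and L1PA11 fell by 0.42. RSeT against primed cells gave 1.57 for L1HS, 1.24 for L1PA2, 0.74 for L1PA3 and 0.55 for L1PA4, and RSeT+DT against RSeT gave 0.18, 0.12, -0.11 and -0.43. These 3 comparisons share libraries. Neighbouring subfamilies are similar in sequence, so reads can be split between them.

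**Figure D4:**
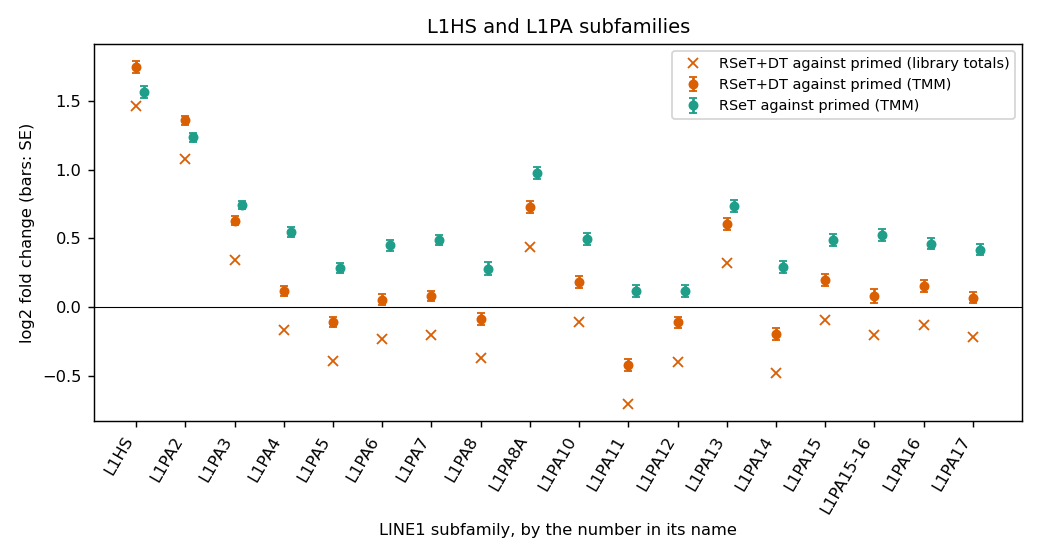
Log2 fold change (y axis) of L1HS and the L1PA subfamilies (x axis, ordered by the number in the name); filled points are TMM values with their SE for RSeT+DT and for RSeT against primed cells, and crosses are RSeT+DT against primed cells with library totals. L1HS, L1PA2, L1PA3, L1PA8A and L1PA13 lie above zero under both scalings.

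In the young LINE1 list 5 of 9 were higher (55.6%) and 1 lower (11.1%). The counts were 4 and 5 under library totals and 7 and 0 under interspersed scaling. Of 42 older primate LINE1 subfamilies 21 were higher (50%) and 8 lower (19%), with a median of 0.14, but 8 and 21 with library totals. Among all repeats other than simple repeats, 25.1% were higher and 32.9% lower with TMM. L1PB2 rose from 268.9 and 284.5 to 495.6 and 518.9 CPM (1.16, SE 0.043) and L1PBa1 rose by 0.92. L1P3b fell by 1.07, from 55.1 and 54.5 to 20.1 and 22.9 CPM, and its RSeT libraries, at 53.9 and 56.3, were at the level of the primed ones. The 80 mammalian-wide LINE1 subfamilies leaned the other way, with 12 higher and 47 lower (median -0.15), and 2 and 68 with library totals. L1M2 stood out with 3463 and 3321 CPM in RSeT+DT, 2415 and 2408 in RSeT and 1736 and 1815 in primed cells (1.22, SE 0.041), and L1M4c rose by 0.66. L1M6B fell by 0.65, and L1MB3 and L1ME2z by 0.36 each.

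Alu elements, short repeats that depend on LINE1 for copying, had calls in both directions. Among 51 tested names 12 were higher (23.5%) and 21 lower (41.2%), with a median of -0.06. The shares of all repeats other than simple repeats were 25.1% and 32.9%. The counts of Alu names were 6 and 35 under library totals and 16 and 15 under interspersed scaling. In the youngest family, AluY, 11 of 25 were higher and 1 lower (median 0.16), in AluS 1 of 17 was higher and 11 lower (-0.12), and in AluJ, the oldest, all 4 were lower (-0.26). With library totals the counts were 6 higher and 10 lower in AluY (median -0.13), 0 and 16 in AluS, and 0 and 4 in AluJ. These families were set apart after the data had been seen, and the difference between them was not tested. AluYa5 rose from 342.7 and 310.6 to 482.1 and 453.2 CPM (0.80, SE 0.061) and AluYb8 from 222.7 and 203.9 to 290.2 and 302.3 CPM (0.76, SE 0.044). AluJb, AluJr and AluJo were lower, at -0.21, -0.25 and -0.27, whereas AluY itself, at 9764 and 10310 against 12678 and 12759 CPM, did not pass (-0.06). The share of all counts taken by Alu was 14.8% and 15.5% in RSeT+DT, 19.9% and 20.6% in primed cells, and 18.4% and 18.8% in RSeT. SVA, a composite that also depends on LINE1, changed by under 0.5 log2 units. SVA_E rose by 0.47, SVA_F by 0.38, SVA_A by 0.21 and SVA_D by 0.17, and SVA_B and SVA_C were lower at -0.17 and -0.11, the last with a call that was lost with interspersed scaling and, at -0.099 to -0.078, without any library other than RSeT replicate 1. With library totals, of the 6 SVA names SVA_E alone was higher, SVA_B and SVA_C were lower, and SVA_A and SVA_D were at -0.08 and -0.12.

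Among old repeats, most of those that passed were lower, as over all repeats other than simple repeats (25.1% higher and 32.9% lower). The share lower was 53.3% of DNA transposons and 45.7% of MIR, L2 and other ancient elements. It was 18.6% of UCON and Eulor elements, under the share over all repeats other than simple repeats. DNA transposons, which have been inactive in primates for a long time, had 26 of 212 higher and 113 lower (median -0.18), and 8 and 178 with library totals, where the median was -0.47. MER113 fell by 0.48, Tigger13a by 0.46 and Tigger17a by 0.42, and hAT-16_Crp, at 1.61 and 1.30 against 6.24 and 5.28 CPM, fell by 1.69. There were exceptions: Charlie21a rose from 92.1 and 95.5 to 190.6 and 235.0 CPM (1.46, SE 0.064), Kanga11a rose from 197.3 and 204.6 to 424.6 and 422.0 CPM (1.36, SE 0.041), MER136 by 1.82 and HSMAR1 by 0.63. MIR, L2 and other ancient elements had 7 of 46 higher and 21 lower (median -0.18), and 3 and 32 with library totals. MIR was at 10267 and 10752 against 14901 and 15646 CPM (-0.25), MIRb at -0.27, L2a at -0.19 and Plat_L3 at -0.40, and X6A_LINE (0.84) and Penelope1_Vert (0.49) rose. Conserved elements of the UCON and Eulor kind, which include remnants with regulatory roles, had 15 of 118 higher and 22 lower (median -0.12), with 8 and 44 under library totals and 20 and 19 under interspersed scaling. UCON27 rose by 1.09, MER135 by 0.65 and UCON70 by 0.49, and UCON53 fell by 1.24, UCON23 by 0.93 and MER124 by 0.78.

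Satellites, the tandem arrays of centromeres and their surroundings, held both large rises and falls. ALR/Alpha, the alpha satellite of all centromeres, was at 8430 and 7843 CPM in RSeT+DT, 523.6 and 548.8 in primed cells, and 32356 and 32556 in RSeT. The log2 fold change was 4.21 (SE 0.038, adjusted p = 1.57e-31), a fold of 18.5, and RSeT+DT was lower than RSeT by -1.84. ACRO1, from the short arms of acrocentric chromosomes, had 302 and 374 counts in RSeT+DT and 15 and 18 counts in primed cells (23.1 and 32.5 against 0.891 and 1.32 CPM). Its log2 fold change was 4.94 (SE 0.200), and it too was lower in RSeT+DT than in RSeT (-1.11). SATR1 rose by 1.28 and GSATII, a gamma satellite, by 0.76. HSAT4, at 13.3 and 13.5 against 41.2 and 41.3 CPM, fell by 1.33 (SE 0.115), BSR/Beta by 0.45 and SATR2 by 0.32, and SST1 did not pass (-0.05). Of the 18 tested satellites 7 were higher (38.9%) and 6 lower (33.3%), and 6 and 9 with library totals. Over all repeats other than simple repeats the shares were 25.1% and 32.9%. HSATII, the name of satellite II, was listed with 0 counts in all 6 libraries.

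The pentamer shown above was nonetheless counted under its simple-repeat names. (GGAAT)n had 5567 and 4138 counts in RSeT+DT, 9607 and 4803 in RSeT, and 12 and 5 in primed cells. In CPM these were 426.2 and 359.2, 250.8 and 279.4, and 0.713 and 0.367. Its log2 fold change was 9.73 (SE 0.143, adjusted p = 8.04e-27), and it was 9.0 for RSeT against primed cells and 0.73 for RSeT+DT against RSeT. On the same strand (TGGAA)n rose by 5.57 (SE 0.252) and (AATGG)n by 0.68, (ATGGA)n passed with 17 and 8 counts against 1 and 1, and (GAATG)n, at 106 and 89 against 167 and 126 counts, did not pass. On the complementary strand (TCCAT)n rose by 4.70 (SE 0.355), from 7 and 5 to 143 and 69 counts, and the other 4 did not pass. Summed over the strand of (GGAAT)n, levels were 464.9 and 394.0 CPM in RSeT+DT, 287.0 and 322.4 in RSeT, and 17.5 and 18.6 in primed cells, and summed over the complement they were 24.8 and 19.3, 27.3 and 29.5, and 14.7 and 14.5. The increase in CPM was thus almost wholly in the names of 1 strand, and the strand setting of the counting is not known from the sources used here.

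Other simple repeats changed by large factors too. (CCGAGGC)n rose from 51 and 26 to 332 and 325 counts (3.69, SE 0.170), (TTATATC)n from 50 and 37 to 267 and 260 counts (3.19, SE 0.172) and (CATCGT)n from 21 and 25 to 116 and 137 counts (3.05, SE 0.222). (TTTCAAT)n nearly vanished, with 137 and 149 counts in primed cells, 3 and 1 in RSeT+DT and 5 and 2 in RSeT (adjusted p = 2.34e-11 by edgeR). (AGCGAG)n fell by 3.72, (GGCTGAT)n by 3.60, (AGGTGGC)n by 3.30, (GGCGT)n by 3.28 and (TCTGAG)n by 2.93. Among rows with the smallest adjusted p, (GACGG)n rose from 15.4 and 14.3 to 59.1 and 62.7 CPM (2.31) and (GAAG)n from 200.6 and 206.4 to 350.0 and 349.0 CPM (1.07), while (GCCCAGC)n fell from 88.1 and 93.1 to 12.5 and 11.7 CPM (-2.61), (CAACCG)n by 2.83 and (GGAG)n by 1.55.

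Simple repeats were also counted by the makeup of the unit. Over all simple repeats 25.2% were higher and 16.2% lower. Units with a CpG, the site of DNA methylation, had 283 of 796 higher (35.6%) and 117 lower (14.7%), with a median of 0.19. Units without one had 578 of 2634 higher (21.9%) and 440 lower (16.7%), with a median of -0.04. Among units with a GC content above 60%, those with a CpG had 274 of 766 higher and 111 lower (median 0.19) and those without 166 of 736 higher and 175 lower (-0.08). With library totals both medians were below zero, at -0.09 (150 higher and 207 lower) and -0.36 (97 and 305). Part of the falls came from rows with few counts. Rows with a mean of at least 50 counts were also counted apart. Among them, units without a CpG had 114 higher and 77 lower of 343 at 60 to 80% GC (median 0.086). Above 80% they had 21 and 18 of 69 (0.026). In the same 2 GC classes, units with a CpG had 49 and 23 of 115 (0.22) and 175 and 41 of 343 (0.28). Units without a CpG at 20 to 40% GC had 108 and 26 of 231 (0.238). Those up to 20% had 70 and 26 of 222 (0.115), and those at 40 to 60% had 112 and 72 of 317 (0.0845). Rises were thus not particular to units with a CpG. The difference between units with and without a CpG was not tested. In RSeT against primed cells, units above 60% GC had medians of -0.30 with a CpG and -0.37 without, over rows of any count tested. Units of 3 bases had 40 of 62 higher and 5 lower, and 12 and 18 with library totals. GC-rich tandem repeats are common in CpG islands at the starts of genes, so their counts can include reads of those genes.

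**Figure D5:**
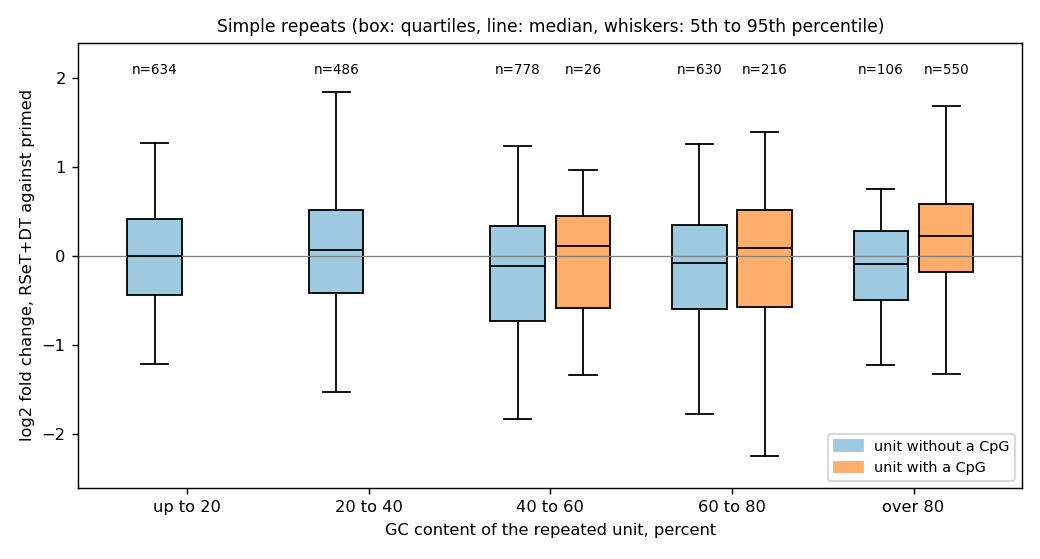
Log2 fold change of RSeT+DT against primed cells (y axis, TMM scaling) for simple repeats by the GC content of the unit in percent (x axis), with a separate box for units with and without a CpG; boxes are quartiles, lines medians and whiskers the 5th and 95th percentiles, and classes under 20 rows are not drawn. Units with a CpG and over 80% GC have the highest median, 0.22, and those without a CpG in the same class lie at -0.08.

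Many simple repeats have partner names, the unit read from the complementary strand. For each pair the most counted name of each strand was taken, so the 2 names can differ in starting point as well as in strand. (GGAAT)n, for example, was paired with (TTCCA)n, at 9.73 and 0.23. Of 217 such pairs with a mean of at least 50 counts for each name, both were higher in 50, both lower in 7, and opposite in 23; in the other 137 at least 1 name did not pass. With library totals both were higher in 13, both lower in 32 and opposite in 23. Of all tested simple repeats, at any count, 25.2% were higher and 16.2% lower with TMM. Pairs of unrelated names were not counted, so agreement between strands beyond the shares called was not tested. (CGC)n and (GGC)n, among the most counted, rose by 0.49 and 0.43, (GCA)n and (GCT)n by 0.37 and 0.35, (CCCCGG)n and (CCGGGG)n by 0.60 each. (A)n and (T)n passed at 0.30 and 0.24, but their CPM overlapped between the groups, at 3493 and 3616 against 3462 and 3586 for (A)n and at 4924 and 4475 against 4708 and 4979 for (T)n, and with library totals 0 of the 4 units of 1 base were higher. (AC)n and (TG)n did not pass, at -0.04 and -0.05. (GAAG)n and (TCCT)n differed, at 1.07 and 0.41. The median distance between the names of a pair was 0.46, which takes in differences of starting point and of strand alike.

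Structural RNAs took up nearly as much of the counts in RSeT+DT as in primed cells. 7SLRNA, part of the signal recognition particle, made up 21.3% and 19.2% of the counts in RSeT+DT, 22.1% and 20.5% in primed cells, and 14.7% and 14.1% in RSeT. It passed at 0.21, but its CPM overlapped between the groups, DESeq2 did not call it, and with library totals it was at -0.08. 7SK, which restrains the elongation factor P-TEFb, was at 23004 and 22303 against 22694 and 22534 CPM, also overlapping, with 0.29 by TMM and 0.00 with library totals. BC200, a primate RNA that arose from an Alu element and acts in translation, rose from 97.4 and 106.1 to 233.9 and 225.2 CPM (1.46, SE 0.048, adjusted p = 9.9e-19), with 180.8 and 169.9 CPM in RSeT. It was the leading small RNA of the comparison.

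Among the other small RNAs, U8, a nucleolar RNA needed for processing of the large ribosomal RNA, rose from 8.02 and 6.90 to 12.9 and 12.6 CPM (1.05, SE 0.152). U3, which acts in processing of the small ribosomal RNA, was at 7321 and 5420 against 5038 and 3151 CPM (0.92, SE 0.147), and DESeq2 did not call it. HY1, a Y RNA, fell by 0.44 (SE 0.071), and U7 and U13_ were lower at -0.38 and -0.32. The call of U13_ was lost without RSeT+DT replicate 1 (-0.24) or primed replicate 1 (-0.26), and that of U7 with DESeq2, interspersed scaling and only the 2 groups, without RSeT+DT replicate 1 (-0.18) or primed replicate 1 (-0.24), and without either RSeT library (-0.37 and -0.36). In all 6 of 19 were higher (31.6%, against 25.1% of repeats other than simple repeats) and 3 lower (15.8% against 32.9%). The counts were 4 and 10 under library totals and 7 and 2 under interspersed scaling.

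Ribosomal RNA differed widely between libraries of a group. LSU-rRNA_Hsa was at 6559 and 11213 CPM in RSeT+DT, 6177 and 1203 in primed cells, and 4005 and 3637 in RSeT. SSU-rRNA_Hsa was at 4225 and 9654, 5134 and 465.3, and 3146 and 2211. The first passed at 1.53 (SE 0.351, adjusted p = 0.000857) and the second at 1.56 (SE 0.497, adjusted p = 0.012). Primed replicate 2 was the low library in both. For SSU-rRNA_Hsa primed replicate 1 was above RSeT+DT replicate 1, and the call was lost with DESeq2, with only the 2 groups and without RSeT+DT replicate 2 (0.91); for LSU-rRNA_Hsa it was lost with DESeq2. The 5S RNA did not pass (-0.03). The part of library preparation in these values was not tested.

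Transfer RNA names had 17 of 56 higher (30.4%) and 6 lower (10.7%), with a median of 0.33, and 10 and 10 with library totals. The shares of all repeats other than simple repeats were 25.1% and 32.9% with TMM. tRNA-Glu-GAA rose from 12.2 and 13.6 to 33.8 and 36.7 CPM (1.74, SE 0.1), tRNA-Leu-TTA(m) by 1.14 and tRNA-Ser-TCA(m) by 0.66. tRNA-Gly-GGY, at 60.7 and 61.0 against 157.8 and 158.2 CPM, fell by 1.09 (SE 0.061). tRNA-Ala-GCA, at 17.5 and 17.4 against 50.7 and 37.6 CPM, fell by 1.07 and was at 61.0 and 54.8 CPM in RSeT. Such rows include old tRNA-derived copies and host transcripts beside tRNA genes.

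The RSeT libraries stand beside these results without a count of shared calls, as the comparisons share libraries. Against primed cells, RSeT had 629 repeats other than simple repeats higher (51.1%) and 107 lower (8.69%). RSeT+DT against RSeT had 79 higher (6.41%) and 648 lower (52.6%). Simple repeats went the other way, with 435 higher (12.7%) and 1003 lower (29.2%) in RSeT against primed cells, and 1089 higher (31.7%) and 162 lower (4.72%) in RSeT+DT against RSeT. These counts are from TMM alone, under which the medians over all tested repeats were -0.03 and 0.03. The directions of both sets are relative to that centre, and counts under other scalings are not given for these 2 comparisons. For HERVK-int the values of RSeT+DT against primed, RSeT against primed and RSeT+DT against RSeT were 5.93, 5.98 and -0.06, for HERVH-int 2.50, 1.70 and 0.80, for ALR/Alpha 4.21, 6.05 and -1.84, for LTR17 2.03, 1.56 and 0.46, and for BC200 1.46, 0.92 and 0.54. HERVH-int, LTR17 and BC200 were thus higher in RSeT+DT than in either other group (adjusted p against RSeT of 4.09e-18, 5.64e-09 and 3.98e-10 by edgeR), HERVK-int lay far above primed cells in both, and ALR/Alpha was highest in RSeT.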

How the data were processed

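RNA of 6 H9 libraries was made from total RNA with a stranded kit, per the labels' protocols. The submitters' processing notes list the GRCh38 build, STAR 2.7.8a, Trimmomatic 0.39, Subread 2.14.2 and featureCounts; the sources used here do not give the strand setting, the repeat annotation or how reads with many placements were treated. The authors deposited raw counts per repeat name. The CPM deposited by the authors cover 7383 of the 15600 names and equal the rescaled counts within 0.00442; rows without CPM total at most 9 counts.

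Counts were tested with edgeR 4.0.16 in R 4.3.3 (glmQLFit, glmQLFTest, TMM) over all 6 libraries with group as the only term, after filterByExpr (10 counts, total 15), which kept 4665 names. The fit had 3 residual degrees of freedom and a common biological coefficient of variation of 5.49%. Each standard error (SE) was derived from F and the fold change. Libraries of a group differed beyond sampling noise (chi-square per degree of freedom 17.9 for RSeT+DT, 31 for primed). This chi-square is summed over all rows, so highly counted rows that differed between replicates, such as ribosomal RNA, weigh heavily in it. Log2 CPM of the 2 libraries correlated at 0.987 in RSeT+DT and 0.992 in primed cells. The fit was tested on simulated data. Repeats were put in lists by name. Named repeats were the 15 largest rises and falls (6 each for simple repeats) among those that passed, had a mean of 50 counts and did not overlap in CPM; without the last 2 conditions, the 3 smallest adjusted p in each direction per list; and anchors, whether or not they passed; subfamily splits, unit spellings and pairs were chosen later. The members and lists were chosen with earlier results of these data known. Alternatives were other scalings (RLE, library totals, interspersed repeats), other filters, DESeq2 1.42.0, limma 3.58.1 on log2 of CPM plus 1 or 0.1, the replicate block, only the 2 groups, a 2-fold minimum and each library left out.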

Additional observations from a re-analysis of the deposited data

How the results depend on the processing

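The counts of repeats higher and lower in RSeT+DT than in primed cells depended on scaling. All repeats numbered 1173 and 962, and those other than simple repeats 309 and 405. Library totals gave 608 and 1787 (141 and 724), limma on log2 CPM plus 1 gave 628 and 1895 (145 and 737), limma with 0.1 gave 621 and 1841 (143 and 731), and the 2-fold minimum gave 120 and 86 (28 and 2). Leaving out each library in turn gave 1003 to 1175 higher and 748 to 923 lower (272 to 313 and 324 to 372). RLE, DESeq2, interspersed scaling, the other filters and the fit of only the 2 groups stayed within 1.5 times. The replicate number as a block gave 1166 and 961 (309 and 408) and changed none of 166 named calls. Deviations of same-numbered RSeT+DT and primed libraries correlated at -0.04 across 4665 repeats. That value shows no pairing of the libraries but cannot exclude one, since many of these rows have few counts.

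Under library totals and both limma fits, log2 fold changes turned to -0.056 (library totals) or -0.057 (limma) in HERVK9-int, -0.030 or -0.028 in MLT2F, -0.011 in THE1A, -0.079 in SVA_A, -0.17 in L1PA4, -0.23 in L1PA6, -0.20 or -0.21 in L1PA7, -0.24 in LTR7B, -0.25 in HERVL-int, -0.28 in LTR14B, -0.12 in SVA_D, -0.077 or -0.078 in 7SLRNA and -0.27 in MSTA. These settings leave out the TMM factors. Depth limited simple repeats with few counts, and 2 libraries a group limited all results.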
